A study of Mus musculus with 4 samples.

Results

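A set of 49 genes was low in wild-type retinas and higher in *rd7* retinas by the values that selected it. The set was drawn from a table of 22095 loci, each with its FPKM (fragments per kilobase of transcript and per mapped read total, a level already divided by length) in 4 RNA-seq libraries. A gene entered when its estimate had succeeded in all 4 libraries, both wild-type FPKM were under 1, and both *rd7* FPKM were at least 1 and at least 2 times the larger wild-type value. Of the 9145 loci with a successful estimate and both wild-type FPKM under 1, 50 met these conditions, which is 0.547%. *Ppef1*, the 1 gene set aside by name, was the only one of the 50 that the exclusions of potassium channels, collagens, fatty acid binding proteins, endothelins, crystallins and *Ppef1* touched. Because the genotype difference itself picked the genes, every level and ratio given for them here is a description and carries no test.

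The labels give C57BL/6J as the strain of all 4 libraries. The study's methods instead set C57BL/6J and *rd7* mice side by side as strains, so a shared background is given by the labels only. Both genotypes were sampled at 3 weeks of age, and each has 2 libraries, each a pool of 8 retinas from 2 females and 2 males. The *rd7* animals carry a germline mutation of *Nr2e3*, and the controls are wild-type. The labels name no treatment or transgene for either group. A library is thus a pool of 4 animals, so the spread between replicates is a spread between pools, and a pool holds photoreceptors, inner neurons, Müller glia, vessels and any adhering tissue.

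*Nr2e3* encodes an orphan nuclear receptor that acts with the transcription factors Crx and Nrl in newborn rods, where it helps to turn on rod genes and keeps cone genes silent. Retinas without the working receptor make surplus cones of the short-wavelength type, and their remaining rods are hybrids that express genes of both photoreceptor kinds. In bulk tissue, more cells of a type and more RNA per cell cannot be told apart.

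Limma tested the 12655 genes whose mean FPKM reached 1, and called 37.6% higher and 8.8% lower in *rd7* at an FDR of 5%. Calls in the direction of the set were thus common. Counts of calls in gene lists are to be read beside these shares and were not tested against them. The shares changed with the processing, as given at the end. The depth, estimated from the value of 1 read in genes with 1 transcript, was between 3.52e+07 and 3.59e+07 reads per library. That value was sought only between 0.02 and 0.036 FPKM for a length of 1 kb. The window bounds the estimate, so read numbers given here are approximate and the likeness between libraries is no check. *Nr2e3* itself measured 2493 and 1589 FPKM in *rd7* and 385 and 394 in wild-type, and a level over the whole locus does not read the mutation. Of 12 cone genes, 10 were called higher, and of 8 rod genes tested none was called higher and 5 were called lower. Without either wild-type library only 1 rod gene was called lower, and without either *rd7* library 1 was called higher.

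The 4 libraries of each selected gene are drawn in the plot of FPKM by library. Most of the genes reached only a low level in *rd7*. The mean *rd7* FPKM was under 3 in 35 of them, between 3 and 10 in 11, and at least 10 in 3, with a median of 1.95 against a wild-type median of 0.528. The ratio of the lower *rd7* to the higher wild-type FPKM was given for 47 genes, with a wild-type value under the worth of 3 reads set to that worth, which applied to 1 of them (*1100001G20Rik*). On that scale it had a median of 2.97, and it was at least 4 in 18 genes and at least 10 in 6. By the same estimate of depth, a median of 256 reads supported an *rd7* value and 45.1 a wild-type value. Low did not mean absent, since *Odz1* had about 562 and 633 reads in the wild-type libraries.

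**Figure D1:**
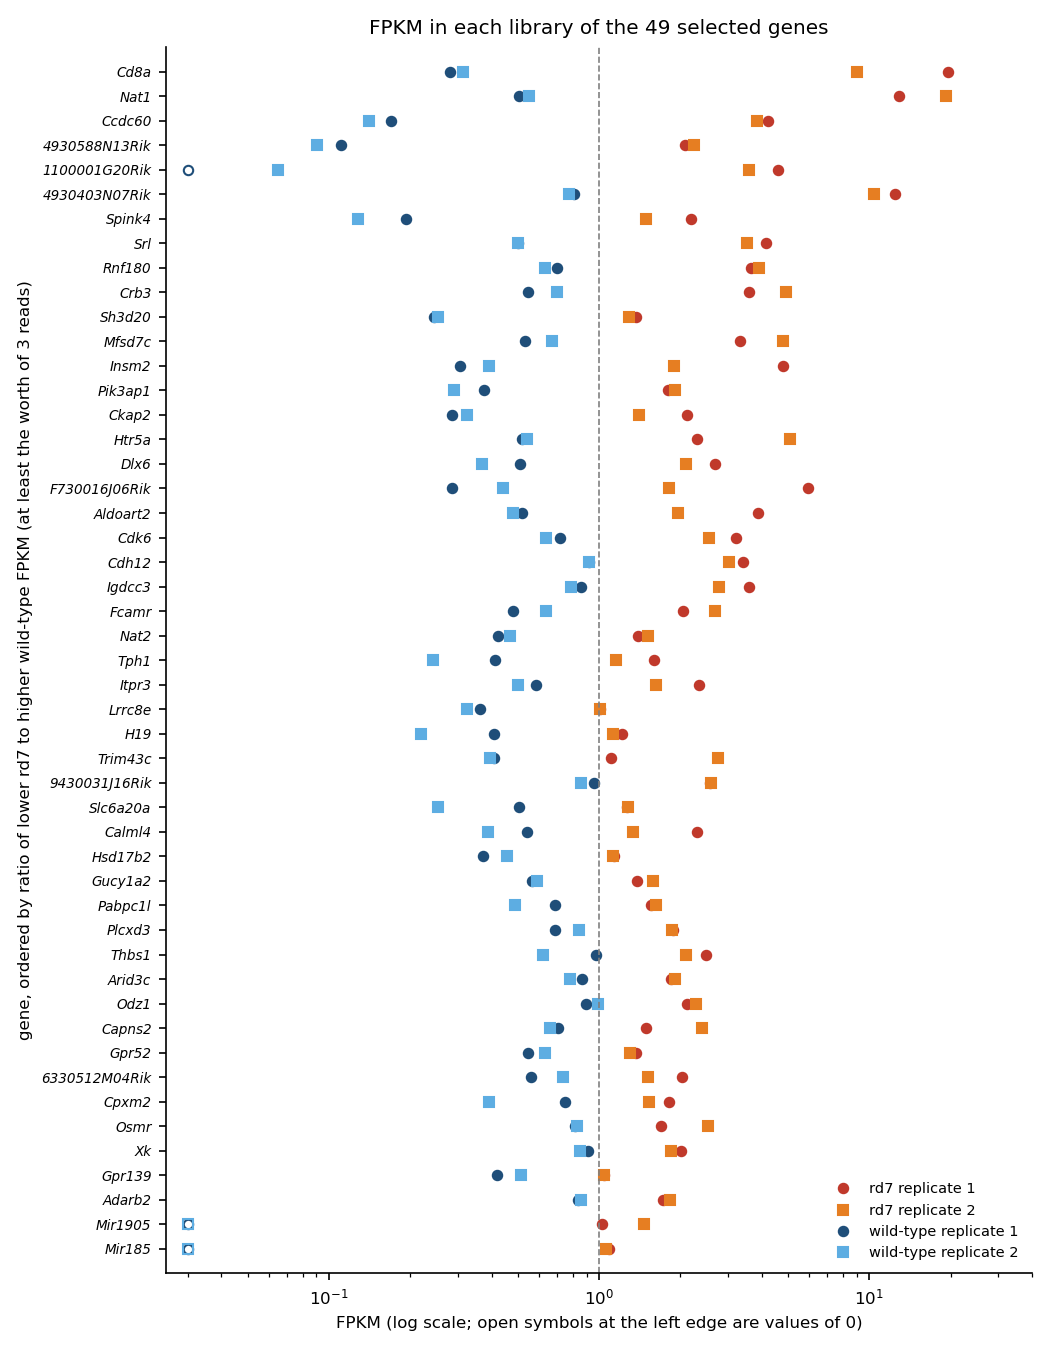
FPKM (log scale) of the 49 selected genes in the 2 *rd7* and the 2 wild-type libraries, 1 point per library, ordered by the ratio of the lower *rd7* to the higher wild-type value, the latter taken as at least the worth of 3 reads. The dashed line is the threshold of 1 FPKM that the rule used, so the separation at that line is set by the selection. *Cd8a* and *Nat1* reach 19.5 and 19.1 FPKM, while most genes stay under 3.

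By known function, the genes fell into 12 groups. They were 4 immune surface receptors and adaptors, 4 metabolic enzymes, 4 genes of serotonin and neuronal receptors, 3 transcription factors, 2 cell cycle genes, and 6 genes of adhesion, polarity and matrix. The others were 4 transporters and channels, 6 genes of calcium and second messenger signalling, 2 ubiquitin ligases, 2 small secreted proteins, 6 RNA genes and RNA-binding proteins, and 6 genes with little known function. No group was made up of photoreceptor genes, but the rule itself kept out the 12 listed cone genes. All of them were above its wild-type limit, the lowest being *Rxrg* at 4.46 and 3.76 FPKM in wild-type. The plot of ratios by function shows that high ratios were scattered over these groups.

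**Figure D2:**
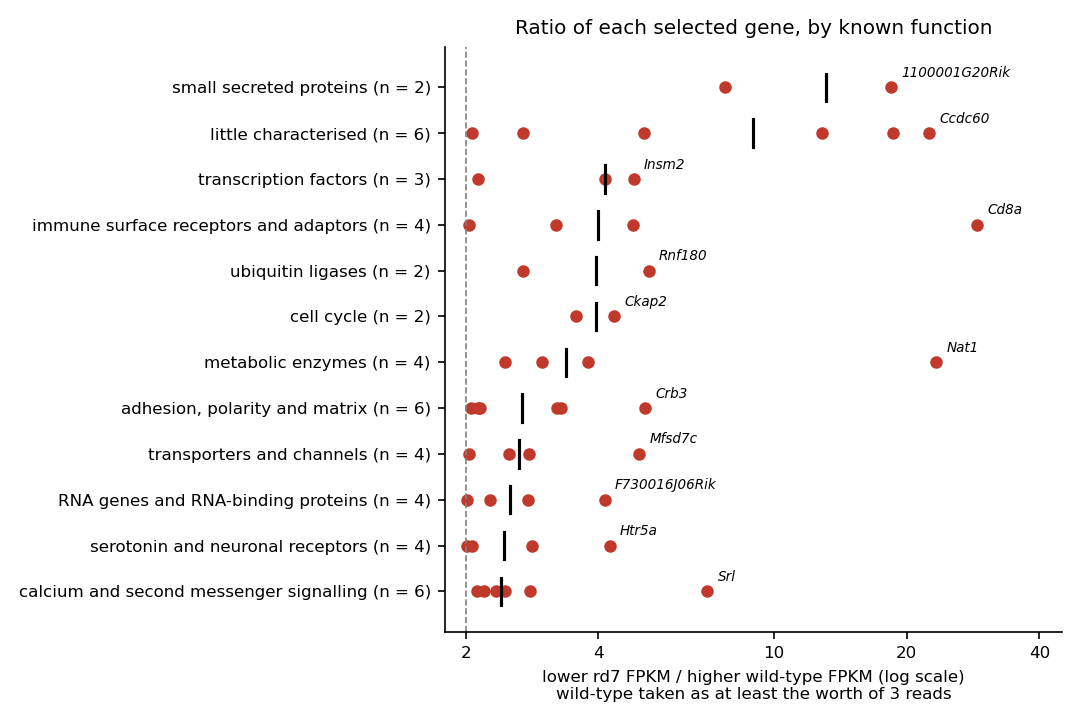
Ratio of the lower *rd7* to the higher wild-type FPKM, the latter taken as at least the worth of 3 reads (log scale), of 47 selected genes by known function, 1 point per gene, with a bar at each group's median and the gene of the highest ratio named. Genes without a ratio are the 2 microRNA hairpins, and the dashed line is the ratio of 2 that the rule used. The 6 ratios of at least 10 belong to 4 different groups.

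Upstream sequences are shown for *Cd8a*, the gene with the highest ratio on that scale, and for the 4 highest-ranked genes that hold the half-site letters of Nr2e3. RefSeq (GRCm38.p6) gave a promoter window for 34 of the 49 genes, and 15 had none, among them *Nat1*, *1100001G20Rik*, *Spink4*, *Srl*, *Dlx6* and *Nat2*. Each line is the 250 bases before a start of the gene, 5′ to 3′ on the strand of the gene. Another start of *Crb3* gave a window at chr17:57061981-57062230 that holds no Nr2e3 half-site. Capitals mark, on either strand, the half-site of Nr2e3 (AAGTCA), the core of Crx sites (TAATCC) and the general nuclear receptor half-site (AGGTCA).
Cd8a, chr6:71373177-71373426, + strand: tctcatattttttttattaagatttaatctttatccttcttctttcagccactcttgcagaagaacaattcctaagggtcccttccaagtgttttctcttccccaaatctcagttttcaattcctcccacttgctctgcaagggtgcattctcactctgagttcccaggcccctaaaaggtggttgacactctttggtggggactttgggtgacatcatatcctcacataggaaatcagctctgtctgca
4930588N13Rik (Tex26), chr5:149439410-149439659, + strand: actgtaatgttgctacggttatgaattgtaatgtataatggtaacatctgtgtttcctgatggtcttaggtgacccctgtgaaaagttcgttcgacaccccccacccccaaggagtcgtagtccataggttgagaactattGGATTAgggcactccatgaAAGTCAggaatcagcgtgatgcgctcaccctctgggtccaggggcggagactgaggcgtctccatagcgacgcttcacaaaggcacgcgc
Crb3, chr17:57061951-57062200, + strand: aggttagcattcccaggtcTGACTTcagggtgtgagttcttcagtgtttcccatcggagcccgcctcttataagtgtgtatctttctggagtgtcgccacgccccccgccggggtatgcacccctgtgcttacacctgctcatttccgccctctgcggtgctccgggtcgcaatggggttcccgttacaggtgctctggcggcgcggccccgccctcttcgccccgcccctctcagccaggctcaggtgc
Insm2, chr12:55598667-55598916, + strand: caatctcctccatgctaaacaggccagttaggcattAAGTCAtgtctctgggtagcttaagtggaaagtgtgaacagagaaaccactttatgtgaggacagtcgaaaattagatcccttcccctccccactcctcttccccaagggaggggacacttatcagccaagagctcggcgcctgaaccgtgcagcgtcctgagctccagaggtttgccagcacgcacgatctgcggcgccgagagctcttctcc
Ckap2, chr8:22185820-22186069, - strand: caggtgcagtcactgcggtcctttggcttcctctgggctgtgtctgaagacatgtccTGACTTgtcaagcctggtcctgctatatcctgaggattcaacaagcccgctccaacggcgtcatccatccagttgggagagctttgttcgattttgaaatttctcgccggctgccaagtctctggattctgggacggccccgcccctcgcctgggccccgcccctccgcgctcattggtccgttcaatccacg
The window of *Cd8a* holds none of these letters, and that of *4930588N13Rik* holds both a Crx core and an Nr2e3 half-site.

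AAGTCA was found on either strand in 5 of the 34 genes with a window (14.7%), which are *4930588N13Rik*, *Crb3*, *Insm2*, *Ckap2* and *Fcamr*, and in 14.8% of all 27025 genes with a window of the same length. TAATCC was found in 1 of 34 (2.94%) against 7.21% of all genes, and AGGTCA in 3 (8.82%; *Odz1*, *Pabpc1l* and *Tph1*) against 15.8%. TGCTGA, the half-site of Nrl, was found in 3 (8.82%; *4930403N07Rik*, *Adarb2* and *Htr5a*) against 18.0%, and the TATA box letters TATAAA in 2 (5.88%; *Cdk6* and *Odz1*) against 14.3%. Both strands were searched for each motif, and the 5 motifs are different words, so that a match to 1 is no match to another. A gene with more than 1 window was counted when any of them held the letters. A share of the selected genes near that of all genes is no result about them, and letters missing from 250 bases do not speak of sites elsewhere.

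The 2 microRNA genes are printed because their hairpins met the rule on very few reads. Capitals mark the seed, bases 2 to 8 of the mature RNA (RefSeq, GRCm38.p6).
mmu-miR-1905, chr3:88536311-88536332, - strand: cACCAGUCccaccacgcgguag
mmu-miR-185-3p, chr16:18327405-18327425, - strand: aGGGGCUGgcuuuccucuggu
The seeds of these 2 RNAs differ, and the other arm of miR-185 was not analysed here. *Mir1905* measured 1.02 and 1.47 FPKM in *rd7* and 0 in both wild-type libraries, and *Mir185* measured 1.09 and 1.06 against 0 and 0. By the estimate of depth these values were worth 2.97 and 4.24 reads for *Mir1905* and 2.51 and 2.44 reads for *Mir185*, so no ratio is given. *Mir185* lies within *D16H22S680E*, at 15.8 and 17.4 FPKM in *rd7* and 17.7 and 17.1 in wild-type, and *Mir1905* lies within *Mex3a* on the other strand, at 1.66 and 1.47 against 1.32 and 1.18. The libraries were made from polyadenylated RNA and no step that keeps the strand is described, so reads of a hairpin and of its host gene cannot be told apart.

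*Cd8a*, which encodes the alpha chain of the CD8 coreceptor of cytotoxic T cells, had the highest ratio of the set once wild-type values were raised to the worth of 3 reads. The locus (mm9, chr6:71323421-71329165) measured 19.5 and 9.04 FPKM in *rd7* and 0.280 and 0.313 in wild-type. Both *rd7* pools lay far above both wild-type pools, and the first pool held 2.16 times the level of the second. The lower *rd7* value was 28.9 times the higher wild-type value, and about 997 to 2163 reads supported the *rd7* levels.

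Genes of T cells were read beside *Cd8a*, and any part of these cells in its level was not tested beyond their values. Of 9 other T cell genes, 8 stayed under 1 FPKM in both *rd7* libraries, and *Cd3e*, a defining subunit of the T cell receptor complex, was at 0 in all 4 libraries. *Cd3g* was at 0 and 0.0240 in *rd7* and at 0 in wild-type, and *Cd3d* was at 0.385 and 0.352 in *rd7* and 0.528 and 0.777 in wild-type. *Cd8b1*, the beta chain that pairs with Cd8a in most cytotoxic T cells, was at 0.175 and 0.108 against 0.175 and 0.198. *Cd247*, the zeta chain, was the only one tested. It was at 11.3 and 11.03 against 8.88 and 8.35 (log2 fold change 0.37 ± 0.062 SE, limma adjusted p = 0.00621), and that call is lost without either wild-type library and with a correction for GC content and length. The summed level of the 9 genes was 11.9 to 12.4 in *rd7* and 9.73 to 9.95 in wild-type, most of it *Cd247*.

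**Figure D3:**
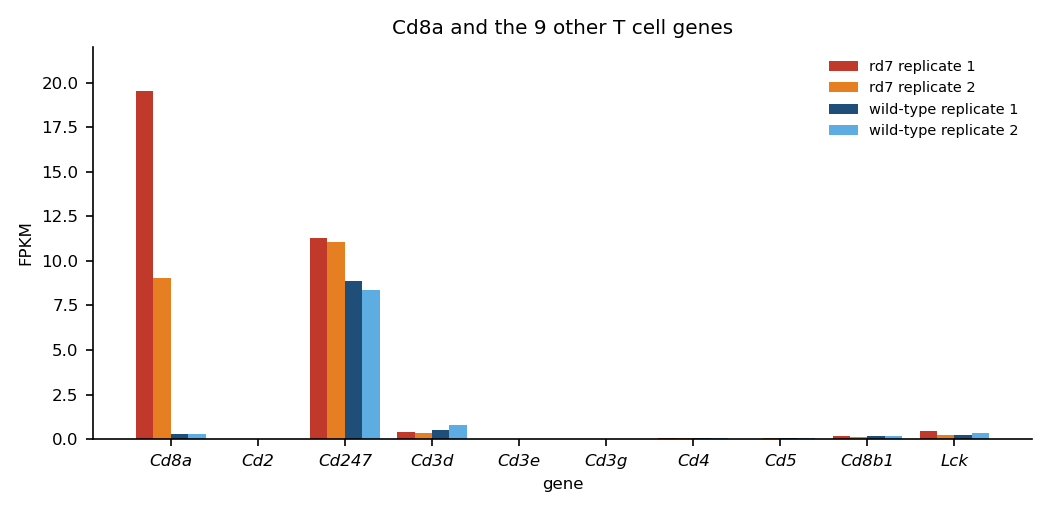
FPKM of *Cd8a* and of the 9 other genes of the T cell list in each of the 4 libraries (bars from 0, 1 bar per library). *Cd8a* is high in both *rd7* libraries and near 0 in wild-type, *Cd247* is present in all 4, and *Cd2*, *Cd3e*, *Cd3g*, *Cd4* and *Cd5* are at or near 0.

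Mouse CD8 alpha is also carried by a subset of dendritic cells. Of 6 dendritic cell genes, none reached the level needed for testing. Their summed level was 2.31 to 2.54 FPKM in *rd7* and 1.97 to 2.14 in wild-type. *H2-Ab1* was at 1.00 and 1.17 in *rd7* against 0.981 and 0.804, and *Flt3* at 0.806 and 0.919 against 0.822 and 0.836. *Xcr1* was at 0.346 and 0.283 against 0.291 and 0.279. *Clec9a* was at 0.108 and 0.0676 against 0.0219 and 0, and *Itgax* at 0.0448 and 0.0649 against 0.0194 and 0.00653. *Batf3* was at most 0.0468 in any library. Over all genes tested, 37.6% were called higher. Of 7 microglial genes, 4 were tested and 2 were called higher (*Csf1r* and *P2ry12*; none without wild-type replicate 1), with a sum of 13.8 to 15.7 in *rd7* and 10.9 in both wild-type libraries. Any part of these cells in the level of *Cd8a* was not tested beyond these values.

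The other immune genes reached lower levels. *Pik3ap1*, the adaptor BCAP that links surface receptors to phosphoinositide 3-kinase, measured 1.81 and 1.90 FPKM in *rd7* and 0.376 and 0.291 in wild-type. *Fcamr*, a receptor for the Fc part of IgA and IgM, measured 2.04 and 2.70 against 0.482 and 0.636. *Osmr*, the oncostatin M receptor, measured 1.69 and 2.53 against 0.811 and 0.828, which is a ratio of 2.04 and close to the limit of the rule. The replicates of *Pik3ap1* lay close together, and those of *Osmr* lay further apart in *rd7* than in wild-type.

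Among the metabolic enzymes, *Nat1* and *Nat2* are the arylamine N-acetyltransferases, which transfer the acetyl group of acetyl-CoA to aromatic amines. *Nat1* (mm9, chr8:70014657-70016002, + strand) measured 12.9 and 19.1 FPKM in *rd7* and 0.505 and 0.552 in wild-type, and its *rd7* mean was the highest of the set (SD 4.45, n = 2). *Nat2* lies 2.77 kb downstream on the same strand and measured 1.39 and 1.52 against 0.423 and 0.467. Both genes entered the set, but their ratios were 23.3 and 2.97. The coding transcripts of this pair share 1.23% of the 50-base stretches of *Nat1*. Only exact matches were compared, and the part of reads assigned to the wrong gene was not tested. *Nat3*, the third gene of the cluster, was at 0 in wild-type and at most 0.0169 in *rd7*.

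*Aldoart2*, a retrogene of the glycolytic enzyme aldolase known from testis, measured 3.89 and 1.96 FPKM in *rd7* against 0.519 and 0.481. Its parent *Aldoa* went the other way, from 1646 and 1604 in wild-type to 1129 and 1409 in *rd7* (log2 fold change -0.37, limma adjusted p = 0.0367; not called without either wild-type library, without the filter on low FPKM or with the GC and length correction). *Aldoart2* shares 0.311% of its 50-base stretches with any other coding gene. *Hsd17b2*, which oxidizes estradiol and testosterone to their less active ketones, was at 1.14 and 1.12 against 0.371 and 0.457. The replicates of *Hsd17b2* lay within a few hundredths of each other in *rd7*, whereas those of *Aldoart2* nearly reached a 2-fold gap.

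The serotonin genes of the set were *Htr5a*, a serotonin receptor of neurons, and *Tph1*, the tryptophan hydroxylase that begins serotonin synthesis outside the brain and in the pineal gland. *Htr5a* measured 2.30 and 5.09 FPKM in *rd7* and 0.518 and 0.543 in wild-type. *Tph1* measured 1.60 and 1.16 against 0.410 and 0.242. In *Htr5a* the second *rd7* pool was 2.21 times the first, and in *Tph1* the first was the higher. Of all genes tested, 37.6% were called higher. Of 15 other serotonin genes, 10 stayed under 1 FPKM in *rd7* and 5 were tested. Of these 5, 2 were called higher, *Htr3a* at 3.03 and 2.87 against 1.26 and 1.25 (log2 fold change 1.17, limma adjusted p = 0.00146) and *Htr2c*, whose call is lost under 8 of 11 alternatives. Without either *rd7* library 3 were called higher, and without either wild-type library 1 was. *Slc6a4*, the serotonin transporter, was at most 0.0443 in any library.

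The orphan receptors *Gpr139* and *Gpr52*, both coupled to G proteins and known from brain, lay at the edge of the set. *Gpr139* measured 1.04 and 1.04 FPKM in *rd7* against 0.417 and 0.516. *Gpr52* measured 1.37 and 1.302 against 0.545 and 0.629. *Gpr52* is a gene of 1 exon inside *Rabgap1l*, which was itself at 12.3 and 12.0 in *rd7* and 9.17 and 9.56 in wild-type (log2 fold change 0.38, called by limma, but not without wild-type replicate 1 or with a correction for GC content and length, where it was -0.01). The part of *Rabgap1l* reads in the level of *Gpr52* was not tested.

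Of the transcription factors, *Dlx6* is a homeobox gene of forebrain interneurons, *Insm2* encodes a zinc finger protein close to the neuroendocrine factor Insm1, and *Arid3c* encodes a DNA-binding protein of the ARID family. *Insm2* measured 4.79 and 1.89 FPKM in *rd7* and 0.305 and 0.392 in wild-type. *Dlx6* measured 2.69 and 2.11 against 0.508 and 0.368, and 4.24% of its 50-base stretches occur in other genes. *Arid3c* measured 1.85 and 1.90 against 0.867 and 0.779, and its wild-type values were the highest of the 3. The first *rd7* pool held 2.54 times the *Insm2* level of the second.

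The relatives of these factors were read beside them. The 5 other *Dlx* genes were all under 1 FPKM in *rd7*, and *Dlx5*, the neighbour that is paired with *Dlx6* on the chromosome, was at 0 in all 4 libraries, as were the overlapping antisense loci *Dlx6as* and *Dlx6os1*. *Insm1* was at 19.2 and 13.3 in *rd7* and 12.5 and 11.6 in wild-type and was not called (log2 fold change 0.41, limma adjusted p = 0.0908). It was called with the replicate block (limma adjusted p = 0.0293) and without *rd7* replicate 2 (log2 fold change 0.67). Like *Insm2*, *Insm1* was higher in the first *rd7* pool.

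The cell cycle genes were *Cdk6*, the kinase that D-type cyclins activate before DNA synthesis, and *Ckap2*, a protein of the mitotic spindle. *Cdk6* measured 3.22 and 2.56 FPKM in *rd7* against 0.720 and 0.636. *Ckap2* measured 2.12 and 1.41 against 0.285 and 0.325. Neither gene overlapped between the genotypes, which the rule requires. Of 11 other cell cycle genes, 8 stayed under 1 FPKM in *rd7*, among them the proliferation genes *Mki67* and *Top2a*, each at most 0.0840. The other 3 were tested. *Bub1b*, a kinase of the spindle checkpoint, was at 33.0 and 37.0 against 4.92 and 5.34 (log2 fold change 2.74), *Plk1*, a mitotic kinase, was at 5.81 and 5.20 against 2.74 and 2.73 (0.98), and *Ccna2*, cyclin A2, fell from 9.19 and 8.74 to 5.78 and 5.18 (-0.70). These 3 calls held under all 11 alternatives of the limma fit. Among 7 tested loci of partners of the D-type cyclin kinases, 4 were called higher and 1 lower, against 37.6% and 8.8% of all genes tested. *Cdkn2d* is counted at 2 loci, both called higher. With median-ratio scaling the higher calls were 2, and they were also fewer without either wild-type library. The lower calls were 2 with the replicate block or without *rd7* replicate 2, and 0 without wild-type replicate 1. *Ccnd1* (0.43) and *Rb1* (0.59) rose and *Ccnd3* fell (-0.36) on the log2 scale, the cyclin calls not without wild-type replicate 1.

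Among the genes of adhesion, polarity and matrix, *Crb3* encodes a short Crumbs protein of the apical membrane of epithelia. It measured 3.58 and 4.91 FPKM in *rd7* and 0.544 and 0.701 in wild-type, the highest ratio of this group at 5.11. Limma called 37.6% of all genes tested higher and 8.8% lower. Of 8 other genes of the Crumbs complex, all expressed, 3 were called higher and 1 lower, near those shares. Without wild-type replicate 1 these counts were 1 and 0, without wild-type replicate 2 they were 2 and 0, without *rd7* replicate 1 they were 5 and 1, and with the GC and length correction they were 1 and 3. *Pard6b* rose from 10.7 and 10.9 to 17.9 and 17.9 (log2 fold change 0.73), and *Crb2* fell from 16.2 and 16.3 to 13.1 and 13.2 (-0.30, a call that is lost without either wild-type library).

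*Cdh12*, a type II cadherin that joins neurons, measured 3.41 and 3.04 FPKM in *rd7* against 0.918 and 0.921. Of all genes tested, 37.6% were called higher. That share was smaller with median-ratio scaling, with the GC and length correction and without either wild-type library, as given with the neighbours below. The other type II cadherins were expressed in both genotypes, and 8 of 10 were called higher, led by *Cdh8* at 9.76 and 8.21 against 3.70 and 4.33 (log2 fold change 1.14). This count was 4 with median-ratio scaling, where 1 was lower, 5 without *rd7* replicate 1 or without the filter on low FPKM, and 3 without either wild-type library or with the GC and length correction. *Cdh8*, *Cdh6* (0.95) and *Cdh11* (0.82) were called under all 11 alternatives.

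*Igdcc3*, a transmembrane protein of the immunoglobulin family, measured 3.59 and 2.78 FPKM in *rd7* against 0.861 and 0.786. *Odz1* (*Tenm1* in RefSeq), a teneurin that guides neuronal contacts, measured 2.12 and 2.28 against 0.894 and 0.994, the wild-type value closest to the limit of 1. Of the 12909 stretches of 50 bases in *Odz1*, 1416 occur in *Gm10483*. How reads were divided between *Odz1* and *Gm10483* was not tested. *Cpxm2*, a secreted carboxypeptidase-like protein, measured 1.81 and 1.53 against 0.746 and 0.392. For *Odz1* the wild-type and *rd7* levels were separated by little more than the 2-fold that the rule asks.

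*Thbs1*, thrombospondin 1, a matrix protein that activates latent TGF-beta, measured 2.49 and 2.09 FPKM in *rd7* against 0.970 and 0.621. Over all genes tested, 37.6% were called higher. Of 7 tested genes of integrins and TGF-beta activation, 5 were called higher, and without wild-type replicate 1 the count was 3. *Itgb8*, an integrin subunit that also activates TGF-beta, lay just outside the rule at 3.06 and 3.89 against 1.01 and 0.793 (log2 fold change 1.84), and *Tgfb2* was at 16.5 and 15.7 against 10.3 and 10.3 (0.64). The calls of *Itgb8*, *Tgfb2* and *Itgav* (0.71) held under all 11 alternatives.

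The transporters included *Mfsd7c* (*Flvcr2* in RefSeq), a transporter of the major facilitator family known from brain endothelium. It measured 3.31 and 4.78 FPKM in *rd7* against 0.532 and 0.670. *Xk*, a membrane protein of the Kell blood group complex, measured 2.02 and 1.85 against 0.911 and 0.850, and *Lrrc8e*, a subunit of the volume-regulated anion channel, measured 1.01 and 1.01 against 0.362 and 0.325. *Slc6a20a*, which carries proline and other imino acids, measured 1.27 and 1.28 against 0.505 and 0.254. Of the 50-base stretches of *Slc6a20a*, 22.7% occur in its neighbour *Slc6a20b*, which was at most 0.120 in any library. *Lrrc8e* was the gene with the lowest *rd7* level among those kept.

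The markers of vessels, blood and pigment epithelium moved between the libraries too. Over all genes tested, 37.6% were called higher and 8.8% lower. The summed level of 7 endothelial genes was 57.0 and 42.5 FPKM in *rd7* and 34.5 and 37.8 in wild-type, with 1 of 7 called higher (5 without *rd7* replicate 2 and 2 without *rd7* replicate 1). The blood genes summed to 76.7 and 161 in *rd7* and 271 and 317 in wild-type, with 3 of 5 tested loci called lower. *Hba-a1* is counted at 2 loci, lower at 1 of them and not called at the other. Only 1 locus was called lower without the filter on low FPKM or with the GC and length correction. Fewer than 3 were lower without either wild-type library. For 9 pigment epithelium genes the sums were 73.6 and 64.2 against 40.1 and 26.1, with 5 of 7 tested called higher (3 without wild-type replicate 2, with quantile normalization or with the GC and length correction, where 1 was lower, and 1 without the filter on low FPKM) and *Best1* at most 0.236 in any library. Their part in *Mfsd7c*, *Xk* or any other selected gene was not tested.

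Of the genes of calcium and second messenger signalling, *Srl* had the highest ratio, 7.07. *Srl* encodes sarcalumenin, a calcium-binding protein of the sarcoplasmic reticulum, and measured 4.14 and 3.54 FPKM in *rd7* against 0.501 and 0.499. *Itpr3*, a calcium release channel opened by inositol trisphosphate, measured 2.34 and 1.63 against 0.582 and 0.503. Over all genes tested, 37.6% were called higher. Of 7 tested genes of the calcium store, 1 was called higher (2 without either *rd7* library). It was *Atp2a2*, the calcium pump, at 83.7 and 87.3 against 59.8 and 61.0 (log2 fold change 0.50, called under all 11 alternatives).

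*Gucy1a2*, an alpha subunit of soluble guanylate cyclase, measured 1.38 and 1.58 FPKM in *rd7* against 0.565 and 0.590. *Plcxd3*, a protein with a phospholipase C domain, measured 1.88 and 1.86 against 0.685 and 0.846. *Calml4*, a calmodulin-like protein, measured 2.31 and 1.33 against 0.542 and 0.387. Its 5′ end overlaps *Gm10653* on the opposite strand, which was at 1.74 and 2.25 in *rd7* and 2.31 and 2.20 in wild-type. *Capns2*, a small calpain subunit encoded by 1 exon, measured 1.49 and 2.40 against 0.702 and 0.660. It lies inside *Lpcat2* on the same strand, and *Lpcat2* was higher in *rd7* as well, at 19.4 and 21.8 against 12.3 and 12.2 (log2 fold change 0.74, limma, called under all 11 alternatives). The fold of means was 2.86 for *Capns2* and 1.68 for *Lpcat2*, and how many reads of *Capns2* came from *Lpcat2* transcripts was not tested.

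The ubiquitin ligases were *Rnf180*, a membrane-bound RING protein, and *Trim43c*, a TRIM protein of early embryos. *Rnf180* measured 3.65 and 3.90 FPKM in *rd7* against 0.701 and 0.631. *Trim43c* measured 1.10 and 2.75 against 0.410 and 0.393. Of the 50-base stretches of *Trim43c*, 43.6% occur in other genes, 36.7% in *Trim43b*. *Trim43b* was at 1.52 and 1.70 against 1.11 and 0.950, and *Trim43a* at 1.26 and 1.79 against 1.48 and 1.34, so the level of *Trim43c* depends on how shared reads were divided and is uncertain.

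The small secreted proteins rested on few wild-type reads. *1100001G20Rik* (*Wfdc21* in RefSeq), a protein with a whey acidic protein domain, measured 4.60 and 3.60 FPKM in *rd7* against 0 and 0.0646. About 126 reads in both *rd7* libraries stood against 1 in both wild-type libraries. *Spink4*, a protease inhibitor of the Kazal type made by gut goblet cells, measured 2.19 and 1.49 against 0.193 and 0.129. Its reads were about 62 against 5.

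Among the RNA genes, *H19*, the imprinted noncoding RNA that neighbours *Igf2*, measured 1.21 and 1.13 FPKM in *rd7* against 0.407 and 0.219. *Igf2* fell, from 11.6 and 10.9 to 9.11 and 8.92 (log2 fold change -0.32), and *Mrpl23* on the other side fell from 50.5 and 47.5 to 39.97 and 41.4 (-0.27), both calls lost without either wild-type library. *F730016J06Rik*, a processed transcript with no known function, measured 5.95 and 1.82 against 0.286 and 0.441. This was the widest gap between *rd7* replicates in the set, 3.27-fold. *Pabpc1l*, a poly(A)-binding protein of oocytes, measured 1.56 and 1.63 against 0.686 and 0.488, and *Adarb2*, an RNA editing family member without known activity, 1.72 and 1.82 against 0.837 and 0.854. *Adarb2* had the lowest ratio of the genes given one, 2.01.

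The genes with little known function included 3 of the 6 highest ratios. *Ccdc60*, a coiled-coil protein (mm9, chr5:116575590-116738994, - strand), measured 4.23 and 3.84 FPKM in *rd7* against 0.170 and 0.141, a ratio of 22.5. *4930403N07Rik* (*Ccdc175* in RefSeq, mm9, chr12:73202279-73286016, - strand) measured 12.4 and 10.4 against 0.806 and 0.774, a ratio of 12.9. *4930588N13Rik* (*Tex26* in RefSeq, mm9, chr5:150242281-150273194, + strand) measured 2.07 and 2.25 against 0.111 and 0.0905, a ratio of 18.6 on about 4 to 5 wild-type reads. The higher *rd7* replicate was 1.10 times the lower in *Ccdc60*, 1.19 times in *4930403N07Rik* and 1.08 times in *4930588N13Rik*.

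The other 3 of this group had lower ratios. *Sh3d20*, which has an SH3 domain and had no RefSeq match, measured 1.37 and 1.29 FPKM in *rd7* against 0.245 and 0.253. *9430031J16Rik* (*Nyap2* in RefSeq), an adaptor of neuronal phosphoinositide 3-kinase, measured 2.57 and 2.60 against 0.954 and 0.858. *6330512M04Rik* (*Ifitm10* in RefSeq), a member of the interferon-induced transmembrane family, measured 2.03 and 1.52 against 0.559 and 0.735, and 2.8% of its 50-base stretches occur in transcripts of the adjoining *Ctsd*. *Ctsd* was at 205 and 208 against 143 and 143.

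The *rd7* replicates of some selected genes lay far apart. They were at least 2-fold apart in 5 of the 49 genes (10.2%) and in 0.922% of the 8891 loci with a mean *rd7* FPKM between 1 and 20. *Cd8a*, *Insm2* and *F730016J06Rik* were higher in the first pool, by 2.16-, 2.54- and 3.27-fold, and *Htr5a* and *Trim43c* in the second, by 2.21- and 2.49-fold. The median absolute log2 ratio of the *rd7* replicates was 0.25 in the set and 0.11 at 1 to 20 FPKM. Of the 46 genes above 0 in both wild-type libraries, none had them 2-fold apart. Over all 49 genes, 29 were higher in the first *rd7* pool and 20 in the second, so the pools did not differ in 1 direction. Pool markers differed too, with the 8 reactive Müller genes summing to 67.6 and 131 FPKM in the first and second *rd7* pool, and their part in the gaps was not tested.

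**Figure D4:**
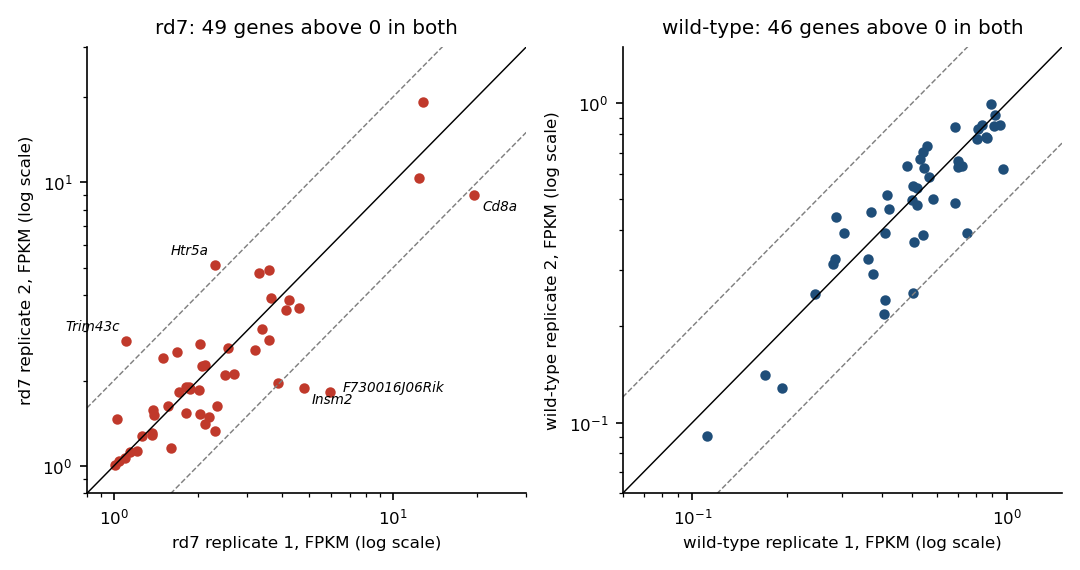
FPKM (log scales) of the selected genes in replicate 1 against replicate 2, for *rd7* (left, 49 genes) and wild-type (right, 46 genes above 0 in both). The solid line is equality and the dashed lines are 2-fold gaps. The 5 named genes lie beyond 2-fold in *rd7*, and no gene does in wild-type.

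By annotation, 43 of the 49 genes were protein-coding, 2 were processed transcripts, 2 were microRNA genes and 2 (*Gpr52* and *Sh3d20*) had no matching entry. Of the 47 annotated genes, 6 had a single exon (12.8%, against 3.34% of 12220 other loci whose mean FPKM reached 1). They were *Nat1*, *Insm2*, *Aldoart2*, *Capns2* and the 2 hairpins. Median exonic length was 3.1 kb against 3.75 kb, and median GC content was 49.6% against 50.1%. The loci spanned a median of 25.1 kb against 22.1 kb, and 11 spanned over 100 kb, among them *Cdh12*, *Odz1* and *Adarb2*. The shares are descriptions of a list chosen at low expression and were compared with genes of higher expression.

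The genes lay on 17 chromosomes. Chromosome 9, which carries *Nr2e3*, held 5 of them (10.2%, against 5.59% of all loci with a successful estimate). *Calml4* and *Igdcc3* lay 2.92 and 5.22 Mb from *Nr2e3*, within a stretch of 10 Mb to either side that holds 224 such loci, and *Trim43c*, *Gucy1a2* and *Slc6a20a* lay 28.9, 56.1 and 63.8 Mb away. On chromosome 12, *Insm2* and *Aldoart2* lay 32.2 kb apart, and both were higher in the first *rd7* pool. *Nat1* and *Nat2*, the other close pair, were both higher in the second.

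Neighbouring genes are a measure that the rule did not use. The nearest tested locus within 200 kb on each side gave 69 neighbours of 44 selected genes. Limma called 28 of them higher in *rd7* (40.6%, against 37.6% of all genes tested) and 8 lower (11.6%, against 8.8%), and their median log2 fold change was 0.14 against 0.15 for all genes. The counts of neighbours were not tested against those of all genes. The share called higher was 30.4% of neighbours against 19.6% of all genes with median-ratio scaling, and 29.0% against 18.6% with quantile normalization. It was 18.8% against 12.4% with the GC and length correction, where 13 neighbours were called. Without wild-type replicate 1 it was 15.9% against 10.2%, with 11 neighbours called, and without wild-type replicate 2 it was 29.0% against 16.8%.

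Only 1 neighbour, *Olfm1*, changed by a log2 fold of at least 1 upward (1.45% of neighbours and 2.17% of all genes). *Olfm1*, a secreted glycoprotein of neurons, lies 68.8 kb from *F730016J06Rik* and was at 219 and 212 FPKM in *rd7* against 89.6 and 93.1 (1.24). On the other side of *F730016J06Rik*, *Col5a1* at 82.0 kb was lower, at 0.807 and 0.817 against 1.42 and 1.52 (-0.78, not called without either wild-type library). Next to *Cd8a*, *Rmnd5a* at 9.46 kb was at 43.0 and 42.0 against 30.5 and 32.7 (0.43, not called with the GC and length correction). Beyond *Nat2*, *Psd3* at 187 kb was at 10.4 and 10.5 against 5.66 and 6.02 (0.83). Beside *Sh3d20*, *Plekhm1* at 1.71 kb was at 5.89 and 6.09 against 5.93 and 5.67 (0.05, not called). *Arhgap27*, at 15 kb on the other side of *Sh3d20*, was at 3.32 and 3.36 against 1.75 and 1.55 (0.98). *Sh3d20* had no RefSeq match, and whether it and *Arhgap27* are parts of 1 gene was not tested. Beside *Pik3ap1*, *Tm9sf3* at 10.2 kb was at 39.9 and 41.0 against 24.1 and 25.5 (0.70). *Jkamp*, 0.449 kb from *4930403N07Rik*, was at 46.7 and 47.9 against 32.5 and 37.2 (0.44, not called with the GC and length correction or without wild-type replicate 1), and 3.1% of the 50-base stretches of *4930403N07Rik* occur in its transcripts.

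*Sh2d1a*, 10.3 kb from *Odz1*, went furthest the other way. This adaptor of lymphocyte receptors was at 0.330 and 0.680 FPKM in *rd7* and 5.34 and 5.40 in wild-type (log2 fold change -3.24, limma adjusted p = 0.00118, called under all 11 alternatives). *Odz1* and *Sh2d1a* do not overlap, and their changes ran in opposite directions.

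**Figure D5:**
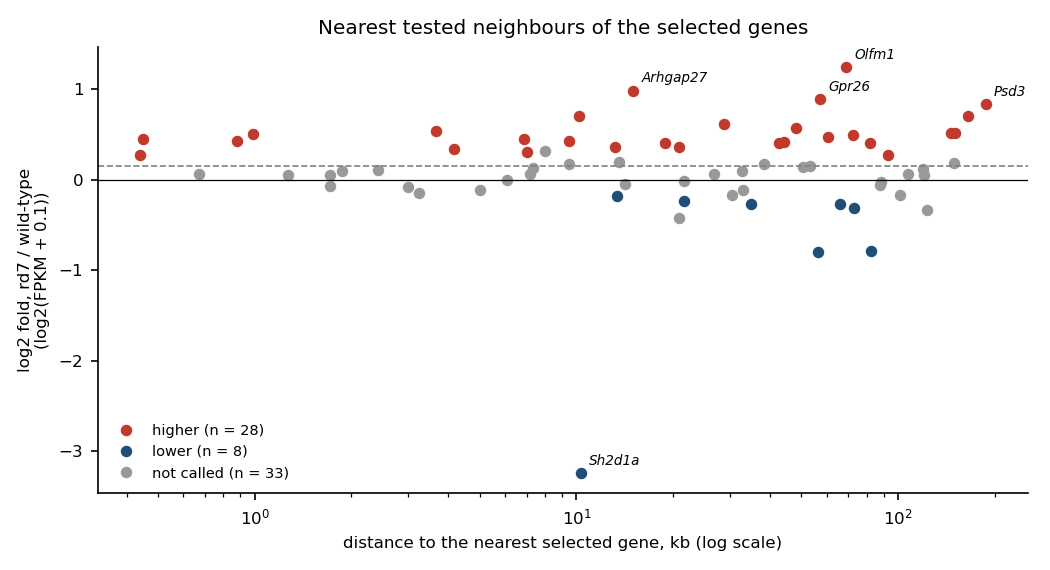
Log2 fold change (*rd7* against wild-type, on log2(FPKM + 0.1)) of the 69 nearest tested neighbours by their distance from the closest selected gene in kb (log scale), coloured by the limma call at an FDR of 5%. The dashed line is the median of all genes tested, 0.15. *Olfm1* lies highest at 1.24 and *Sh2d1a* lowest at -3.24.

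The thresholds of the rule passed through genes of like values. Just inside the wild-type limit lay *Odz1*, *Thbs1* and *9430031J16Rik*, with larger wild-type values of 0.994, 0.970 and 0.954 FPKM, and just outside lay *Itgb8* (1.01), *Pth1r* (1.03) and *Gm15348* (1.08). The smaller *rd7* values were 1.01 in *Lrrc8e*, 1.02 in *Mir1905* and 1.04 in *Gpr139*, against 0.987 in *Car12*, 0.975 in *S100a3* and 0.932 in *Gprin3* outside. By ratio, *Adarb2* (2.01), *Gpr139* (2.02) and *Xk* (2.03) were in, and *Morc4* (1.99), *Cntnap5b* (1.96) and *Best3* (1.96) were out.

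The size of the set depended on the scale of the libraries. Median-ratio scaling moved the median log2 fold over all genes tested from 0.15 to -0.0045, and under it 34 of the 49 genes still met the rule, and 33 of the 49 did so with quantile normalization. The 15 genes lost by the first were *6330512M04Rik*, *9430031J16Rik*, *Adarb2*, *Arid3c*, *Capns2*, *Cpxm2*, *Gpr139*, *Gpr52*, *Lrrc8e*, *Mir1905*, *Odz1*, *Osmr*, *Plcxd3*, *Thbs1* and *Xk*. Only *1100001G20Rik*, *4930588N13Rik*, *Ccdc60* and *Cd8a* met the rule under both scalings and also with a wild-type limit of 0.5, an *rd7* limit of 2 and a ratio of 4. The mirrored rule, near silent in *rd7* and on in wild-type, found 20 loci (0.224% of 8915), and 28 with median-ratio scaling.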

How the data were processed

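RNA-seq values of 4 retina libraries were analysed. The authors sequenced single reads of 50 bp from polyadenylated RNA, and per the labels used TopHat 1.4.1, Cufflinks 1.3.0, Cuffdiff and mm9. The deposited table holds FPKM per gene and library. A second deposited table, with the authors' pooled FPKM, log2 fold changes, p-values and q-values, was not used. FPKM are not counts, so no count model was fitted.

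Selected genes and gene lists were chosen with earlier results of these data known. Genes named are all those selected, those at each threshold, and listed genes or neighbours. The test of other genes used limma 3.58.1 (R 4.3.3) on log2(FPKM + 0.1), for a mean FPKM of at least 1 (trended eBayes, two-sided, Benjamini-Hochberg, FDR of 5%), which was tested on simulated data, and a fold on this scale understates changes of low genes. The study calls the pools of a genotype biological replicates. The p-values set the genotype difference against the spread between these 2 pools, moderated by the variance trend over all genes tested. Exonic length and GC content came from an annotation of the same build (93.8% of loci), and depth from the value of 1 read. Stretches of 50 bases were compared for exact matches among protein-coding transcripts. Python 3.11.15 did the rest.

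Alternatives were other pseudocounts, filters, scalings and thresholds, a GC and length correction, a replicate block and leaving out each library.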

Additional observations from a re-analysis of the deposited data

How the results depend on the processing

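With other limits the rule found 18 genes (wild-type FPKM under 0.5), 19 (*rd7* at least 2) or 20 (ratio of 4), each time a subset of the 49, and 50 without the condition on status. Leaving out 1 library gave 72 to 106 genes, the most without *rd7* replicate 2, with the same 49 among them by construction. Of all genes tested, those called higher and lower were 2486 and 2459 after median-ratio scaling, 2357 and 2401 after quantile normalization, and 1524 and 1839 with the GC and length correction, against 4755 and 1114. Leaving out 1 library gave 1293 to 5484 higher and 224 to 1601 lower, the lowest without wild-type replicate 1. Neighbours called higher, 28 in all, were 13 with the GC and length correction, 18 within 50 kb and 11 to 31 with 1 library left out. Of the 156 listed loci tested, where a gene with 2 loci counts at each, 77 were called higher and 13 lower. With the GC and length correction 48 were higher, and with 1 library left out 35 to 94 were higher and 3 to 22 lower. *Rabgap1l* turned to -0.0136 with the GC and length correction. *Plekhm1*, not called, turned to -0.0129 with that correction, -0.105 with median-ratio scaling and -0.125 after quantile normalization. The cause of these shifts was not tested.

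The labels number the replicates of both genotypes 1 and 2, but the numbers did not pair the libraries (r = -0.03 across 12655 genes between the deviations of the libraries numbered 1). With the replicate block, 4508 genes were called higher and 1091 lower, with 27 neighbours and 74 listed genes higher and 19 listed genes lower. Values under 1 FPKM rest on few reads in short genes, and 2 libraries per genotype give no check on the selected levels.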

Other observations

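Apart from the 49 genes, 86 loci with both wild-type FPKM under 1 met the *rd7* conditions in only 1 of the 2 *rd7* libraries. Among those with the highest level in that library, chosen after their values were seen, were *C4b*, a complement component, at 0.953 and 4.62 FPKM in *rd7* and 0.811 in both wild-type libraries, *Lad1*, an anchoring filament protein of basement membranes, at 0.795 and 4.06 against 0.337 and 0.470, and *Slit3*, an axon guidance ligand, at 0.537 and 3.58 against 0.0518 and 0.0787. All 3 were higher in the second *rd7* pool. Small nucleolar RNA genes were among these loci too, with *Snord19* at 35.0 FPKM in the first *rd7* pool and 0 in the other 3 libraries.

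The 20 loci of the mirrored rule, on in wild-type and near silent in *rd7*, included *Hdc*, the enzyme that makes histamine, at 1.67 and 2.27 FPKM in wild-type and 0.0244 and 0.0490 in *rd7*, and *Zan*, a sperm membrane protein, at 2.13 and 2.13 against 0.0707 and 0.102.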
